A study of Mus musculus with 6 samples.

Results

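Plasma cells are the antibody-secreting end stage of the B cell lineage, and the long-lived ones reside in bone marrow. Irf4 and Prdm1 (which encodes Blimp-1) are the transcription factors that establish the plasma cell state, Xbp1 is the factor that expands the secretory apparatus downstream of them, and Pou2af1 is a coactivator of the octamer-binding factors on immunoglobulin genes. Mzb1 is a protein of the endoplasmic reticulum (ER) that assists immunoglobulin assembly, and Jchain links IgM and IgA into their secreted polymers. These 6 genes, chosen by name as a plasma cell program, are described here in the tibial plateau of Frzb-/- and wild-type mice. Every probe set whose annotation held 1 of these symbols and no other gene was taken, which gave 10 of the 30618 probe sets on the arrays, with 4 for Xbp1, 2 for Irf4 and 1 for each of the others.

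The samples were 6 male C57Bl/6J mice aged 6 weeks, with 1 array per mouse. Articular cartilage of the tibia and the bone beneath it, dissected as a single piece that held bone marrow and the upper growth plate, were profiled on an Affymetrix mouse array. Frzb encodes a secreted WNT antagonist, and 3 mice were labelled Frzb-/- and 3 wild-type. The study set aside 1 mouse labelled Frzb-/- that proved heterozygous on re-genotyping, and the labels do not say which. The Frzb-/- group here is mice 14 and 17, which were taken as the retained pair because an earlier examination of these arrays matched their mean differences to the study's published list, and mouse 6, also labelled Frzb-/-, is shown apart. The wild-type mice are 6-1, 8-1 and 9-1. Values are log2 expression values from robust multi-array averaging (RMA), with array medians between 7.32 and 7.45.

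Frzb itself, read by 2 probe sets, was low in all 3 mice labelled Frzb-/-. The first (1416658_at) read 7.02 in mouse 14 and 6.42 in mouse 17, with 6.93 in mouse 6, against 10.02, 10.79 and 10.16 in the wild-type mice. At the second (1448424_at) the values were 5.22 and 4.92 in Frzb-/- mice and 5.34 in mouse 6, against 8.12, 8.96 and 8.08 in wild-type mice. The log2 differences between Frzb-/- mice (14 and 17) and wild-type mice were -3.61 and -3.31, and limma gave adjusted p-values of 0.000994 and 0.00105. Mouse 6 therefore read within the range of, or close to, the other 2 labelled mice at Frzb.

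A gene was counted as lower or higher when the limma fit of the 2 Frzb-/- mice against the 3 wild-type mice gave a Benjamini-Hochberg adjusted p under 0.01 and a log2 fold change beyond 1 in size. By this test 4 of the 10 probe sets of the program were lower in Frzb-/- mice and 0 were higher, where 5.09% of all probe sets were lower and 2.34% were higher. The 4 that were lower belonged to Jchain, Pou2af1, Mzb1 and Irf4. Prdm1, all 4 Xbp1 probe sets and the second Irf4 probe set did not pass. The tissue held many cell types, so fewer cells of a type and less RNA per cell cannot be told apart.

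Jchain (chromosome 5, 88519809 to 88527897, GRCm38.p6) had the largest difference of the 6 genes. Its probe set (1424305_at) read 7.42 and 6.28 in Frzb-/- mice 14 and 17, and 10.10 in mouse 6, against 9.61, 9.89 and 10.53 in wild-type mice 6-1, 8-1 and 9-1. Both Frzb-/- mice lay below all wild-type mice, with a gap of 2.19 between the groups, and mouse 6 lay inside the wild-type range. The mean was 6.85 ± 0.81 (SD, n = 2) in Frzb-/- mice and 10.01 ± 0.47 (SD, n = 3) in wild-type mice. The log2 fold change was -3.16 (SE 0.38, 95% interval -4.06 to -2.26, adjusted p = 0.00217), which is 8.93-fold lower and the 21st lowest value of all probe sets. Jchain also stands in the list of top genes the study chose on these arrays, so its direction is not independent evidence. The call was lost in 2 of the fits with a mouse left out, which have less power. Without wild-type mouse 8-1 the log2 difference was -3.22 (adjusted p = 0.0116 by limma). Without mouse 17, which leaves a lone Frzb-/- mouse, the difference was -2.58.

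Pou2af1 (chromosome 9, 51213690 to 51240079), the coactivator, followed. Its probe set (1416957_at) read 7.45 and 6.97 in mice 14 and 17, and 9.64 in mouse 6, against 9.53, 10.16 and 10.01 in the wild-type mice. The groups were separated by 2.07, and mouse 6 again lay inside the wild-type range, near its lower end. The means were 7.21 ± 0.34 (SD, n = 2) in Frzb-/- mice and 9.90 ± 0.33 (SD, n = 3) in wild-type mice. The log2 fold change was -2.69 (SE 0.23, 95% interval -3.23 to -2.14, adjusted p = 0.00108), or 6.44-fold lower. Pou2af1 had the smallest adjusted p of the program, and it passed without each wild-type mouse and without mouse 14. Without mouse 17 its adjusted p was 0.0101, just past the threshold.

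Mzb1 (chromosome 18, 35647265 to 35650266), the ER cofactor of immunoglobulin assembly, read 7.96 and 6.80 in mice 14 and 17 at its probe set (1428947_at), and 9.51 in mouse 6, against 9.18, 9.39 and 9.59 in the wild-type mice. Mouse 17 was the lowest of the 6 mice, mouse 14 lay 1.22 below the lowest wild-type mouse, and mouse 6 lay between the wild-type mice. The means were 7.38 ± 0.82 (SD, n = 2) in Frzb-/- mice and 9.39 ± 0.21 (SD, n = 3) in wild-type mice. The log2 fold change was -2.01 (SE 0.32, 95% interval -2.77 to -1.25, adjusted p = 0.00561), or 4.03-fold lower. Mzb1 lost its call when mouse 17 or any single wild-type mouse was left out. The adjusted p was then 0.0143 without mouse 6-1, 0.0251 without mouse 8-1, and 0.0135 both without mouse 9-1 and without mouse 17.

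Irf4 (chromosome 13, 30749233 to 30766981), the transcription factor, was read by 2 probe sets that gave different results. The first (1421173_at) read 6.43 and 6.69 in mice 14 and 17, and 7.78 in mouse 6, against 7.75, 8.44 and 8.30 in the wild-type mice. Both Frzb-/- mice lay below all wild-type mice with a gap of 1.06, and mouse 6 was just above the lowest wild-type mouse. The means were 6.56 ± 0.19 (SD, n = 2) in Frzb-/- mice and 8.16 ± 0.36 (SD, n = 3) in wild-type mice, and the log2 fold change was -1.61 (SE 0.22, 95% interval -2.13 to -1.08, adjusted p = 0.00325), or 3.04-fold lower. That call was lost without wild-type mouse 8-1 (adjusted p = 0.0147), without mouse 14 (0.0229) and without mouse 17 (0.02). The second probe set (1421174_at) read 4.78 and 4.74 in mice 14 and 17, and 4.74 in mouse 6, against 4.80, 4.63 and 5.01 in the wild-type mice. There the groups overlapped and the log2 difference was -0.05 (SE 0.14, 95% interval -0.39 to 0.29, adjusted p = 0.828). All 6 mice read below the array medians (7.32 to 7.45) at this second probe set, and a fall could go unseen at so low a level. When both Irf4 probe sets were averaged, the log2 difference was -0.83 (adjusted p = 0.00525), short of the minimum fold change.

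**Figure D1:**
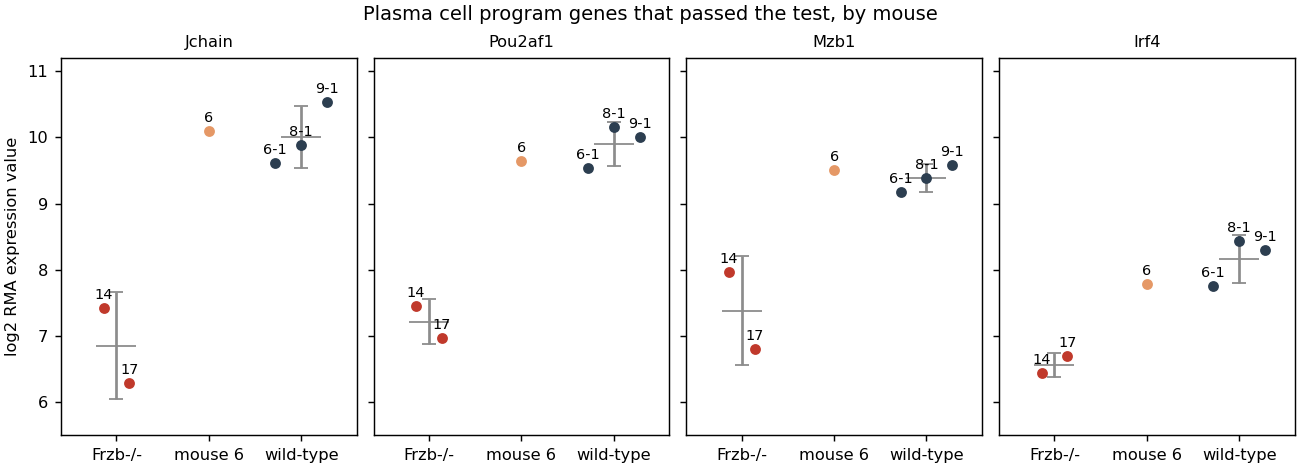
Log2 RMA expression value (y axis) of Jchain, Pou2af1, Mzb1 and Irf4 (1421173_at), a panel each, for Frzb-/- mice 14 and 17, mouse 6 and the 3 wild-type mice. Points are mice, labelled by animal, and grey bars are the group mean ± SD. In each panel mice 14 and 17 lie below the other 4, and mouse 6 lies within the wild-type range.

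The Frzb-/- mice differed among themselves at these genes. Mouse 17 read 1.15 lower than mouse 14 at Jchain, 1.16 lower at Mzb1 and 0.48 lower at Pou2af1. Irf4 ran the other way, with mouse 14 lower by 0.26. The wild-type mice spanned 0.91 at Jchain, 0.41 at Mzb1, 0.63 at Pou2af1 and 0.69 at Irf4 (1421173_at). The difference between mice 14 and 17 thus exceeded the whole wild-type range at Jchain and Mzb1, and was smaller than it at Pou2af1 and Irf4.

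The bases just before the transcription start of the genes that were lower are shown because the octamer bound by the partners of Pou2af1 and the sites of Blimp-1 and Xbp1 could be looked for there. These are the 250 bases before the RefSeq start in GRCm38.p6, 5′ to 3′ on the gene's own strand. Jchain lies at chr5:88527898-88528147 on the minus strand, Pou2af1 at chr9:51213440-51213689 and Irf4 at chr13:30748983-30749232 on the plus strand. Capitals mark a match to the searched Xbp1-type motif.
Jchain: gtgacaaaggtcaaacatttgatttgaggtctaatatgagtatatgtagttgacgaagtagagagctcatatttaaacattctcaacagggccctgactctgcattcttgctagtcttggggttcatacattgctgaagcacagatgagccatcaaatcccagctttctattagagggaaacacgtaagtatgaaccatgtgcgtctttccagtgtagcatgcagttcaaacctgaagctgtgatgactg
Pou2af1: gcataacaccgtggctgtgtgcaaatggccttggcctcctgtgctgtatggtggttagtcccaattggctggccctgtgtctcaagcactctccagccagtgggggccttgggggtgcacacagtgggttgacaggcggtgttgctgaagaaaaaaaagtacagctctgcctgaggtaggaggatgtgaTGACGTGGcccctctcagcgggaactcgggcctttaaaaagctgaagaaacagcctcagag
Irf4: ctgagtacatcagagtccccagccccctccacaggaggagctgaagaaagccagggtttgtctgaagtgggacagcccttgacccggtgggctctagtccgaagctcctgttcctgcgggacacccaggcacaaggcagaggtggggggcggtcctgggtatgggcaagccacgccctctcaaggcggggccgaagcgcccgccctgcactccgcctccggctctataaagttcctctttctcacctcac
Both strands were searched for 3 motifs in the promoters of 5 members, and Mzb1 was not analysed here. The Xbp1-type motif TGACGTGG was in 1 of the 5, that of Pou2af1, at bases 61 to 54 before the start, and in 0.563% of all 32851 promoters of the table. The octamer ATGCAAAT, present in 1.6% of all promoters, and the Blimp-1-type motif AGNGAAAG, present in 7.3%, were each in 0 of the 5. A match is a description of letters, not of a bound site, and the absence of these letters holds for these windows alone.

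Prdm1 (chromosome 10, 44437174 to 44528558), which represses the B cell program as plasma cells form and is also expressed in macrophages and osteoclasts, read 7.31 and 7.09 in mice 14 and 17, and 7.24 in mouse 6, against 7.31, 7.35 and 7.17 in the wild-type mice (1420425_at). The groups overlapped. The means were 7.20 ± 0.16 (SD, n = 2) in Frzb-/- mice and 7.28 ± 0.10 (SD, n = 3) in wild-type mice, and the log2 difference was -0.08 (SE 0.13, 95% interval -0.39 to 0.23, adjusted p = 0.691). The interval leaves out a fall as large as the minimum fold change of the test, at a probe set that read below the array median in every mouse.

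Xbp1 (chromosome 11, 5520641 to 5525993), a driver of secretory capacity that is also used by other secretory cells, was not lower at any of its 4 probe sets. Its brightest probe set (1437223_s_at) read 12.08 and 11.96 in mice 14 and 17, and 11.85 in mouse 6, against 11.64, 12.02 and 11.79 in the wild-type mice. The means were 12.02 ± 0.09 (SD, n = 2) in Frzb-/- mice and 11.81 ± 0.19 (SD, n = 3) in wild-type mice, with overlapping groups and a log2 difference of 0.21 (SE 0.15, 95% interval -0.15 to 0.56, adjusted p = 0.348). The differences at 1420886_a_at and 1420012_at were 0.15 (95% interval -0.21 to 0.51, adjusted p = 0.501) and 0.20 (-0.14 to 0.54, adjusted p = 0.346), and both overlapped. At 1420011_s_at the groups did not overlap. It read 10.41 and 10.51 in mice 14 and 17, and 10.10 in mouse 6, against 10.04, 10.34 and 10.10 in the wild-type mice, a gap of 0.07, and the difference of 0.30 (95% interval -0.02 to 0.63, adjusted p = 0.153) did not pass. All 4 Xbp1 differences were above 0, and all 4 intervals held 0 and left out a fall of 1.

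**Figure D2:**
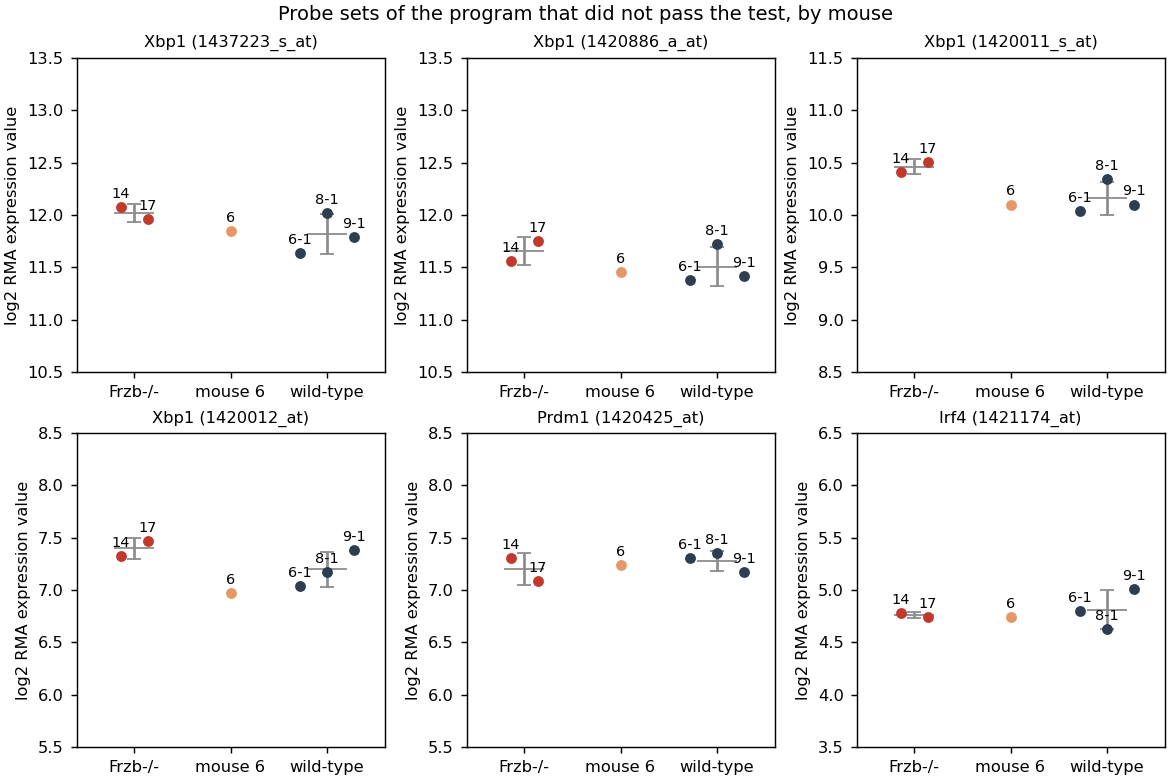
Log2 RMA expression value (y axis, 3 log2 units high in every panel) at the 6 probe sets of Prdm1, Xbp1 and Irf4 that did not pass, for Frzb-/- mice 14 and 17, mouse 6 and the 3 wild-type mice. Points are mice and grey bars the group mean ± SD. The groups overlap in all panels except Xbp1 1420011_s_at, where the gap is 0.07.

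Mouse 6 was set against the 3 wild-type mice in a fit of all arrays, with mouse 6 as a group of its own. A single mouse has no spread, so the spread in that fit came from the wild-type mice and the Frzb-/- group together. At the 2 probe sets of Frzb itself, the difference of mouse 6 from the wild-type mean was -3.39 and -3.05 in that fit. Mouse 6 differed from the wild-type mean by 0.09 at Jchain (95% interval -1.05 to 1.23), by -0.25 at Pou2af1 (-0.94 to 0.43), by 0.12 at Mzb1 (-0.84 to 1.09) and by -0.38 at Irf4 1421173_at (-1.04 to 0.28). It lay inside the wild-type range at 9 of the 10 probe sets, and the share over all probe sets was not counted. The exception was Xbp1 1420012_at, where mouse 6 read 6.97, against 7.04, 7.17 and 7.38 in the wild-type mice. With mouse 6 counted as the third Frzb-/- mouse, 0 of the 10 probe sets passed and 2 had an unadjusted p under 0.05 by limma. The differences were then -2.08 at Jchain (adjusted p = 0.429), -1.88 at Pou2af1 (0.428), -1.30 at Mzb1 (0.433) and -1.20 at Irf4 (0.428).

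**Figure D3:**
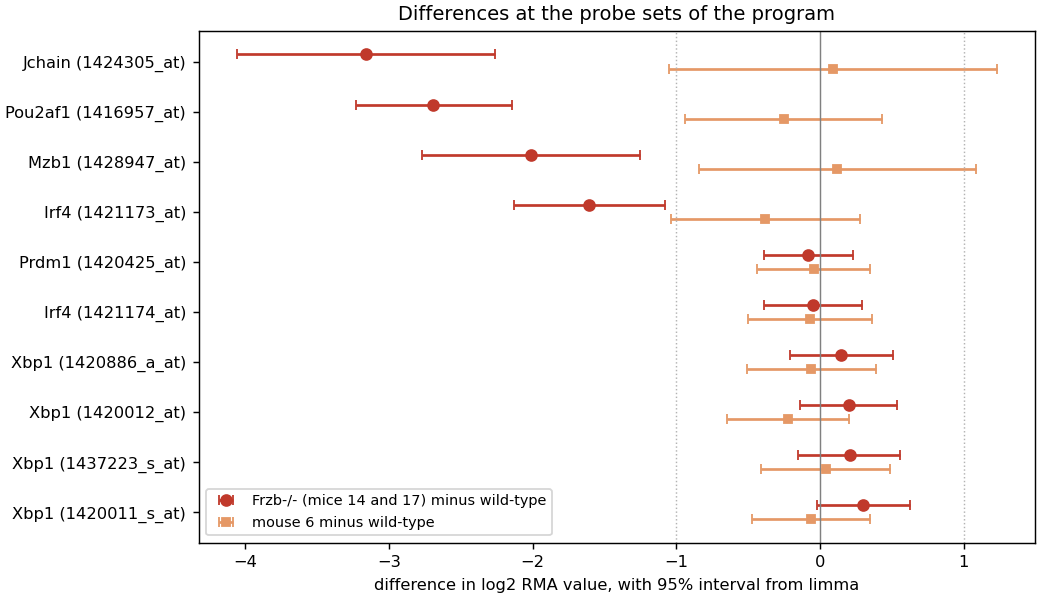
Difference in log2 RMA value (x axis) at the 10 probe sets of the program, with 95% intervals from limma. Red circles are Frzb-/- mice 14 and 17 minus wild-type and orange squares are mouse 6 minus wild-type, and dotted lines mark the minimum fold change of the test. The 4 red intervals at the top lie beyond -1, and every orange interval holds 0.

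Other genes linked to the plasma cell surface and survival were read next, some of which belong to B cells and other marrow cells too. Each was read at its brightest probe set (the highest mean over the 6 arrays). There 6.02% of all 13817 genes were lower and 3.03% higher, with a median log2 fold change of 0.04. Of 12 measured surface and survival genes, 4 were lower and 0 higher, with a median of -0.36. Cxcr4, the receptor that holds plasma cells and other marrow cells to Cxcl12, read 7.64 and 7.11 in mice 14 and 17, and 10.26 in mouse 6, against 10.29, 10.40 and 10.25 in the wild-type mice, a log2 fold change of -2.94 (adjusted p = 0.000878). Tent5c, a poly(A) polymerase that stabilises immunoglobulin transcripts, had -2.51 (adjusted p = 0.000994), and the other 2 that were lower, the B cell survival receptors Tnfrsf13c and Tnfrsf13b, named after their values were seen, had -2.22 and -1.94 (adjusted p = 0.000878 and 0.00124). The count was also 4 when any single mouse was left out. The survival factor Mcl1, at 0.00 (adjusted p = 0.992), did not pass. Sdc1 (CD138), the usual plasma cell surface marker and named here after its values were seen, ran the other way, at 10.37 and 10.30 in Frzb-/- mice and 9.81 in mouse 6, against 9.84, 9.80 and 9.51 in wild-type mice (log2 difference 0.62, adjusted p = 0.0198, not passed). Tnfrsf17 and Cd38 were not analysed here.

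The ER secretory machinery that Xbp1 drives and the unfolded protein response were read in the same way. Of 40 secretory genes 1 was lower and 0 were higher, and the median log2 fold change was -0.05, within a range of -1.17 to 0.74. The gene that was lower, Sec11c, a subunit of the signal peptidase, had -1.17 (adjusted p = 0.00598), while the abundant chaperones Calr and P4hb had 0.15 and 0.23 (adjusted p = 0.376 and 0.226). By limma 8 secretory genes were lower and 4 higher at an unadjusted p under 0.05. The count of 1 became 0 without mouse 6-1, 8-1, 14 or 17 (8, 6, 7 and 6 lower at an unadjusted p under 0.05) and 2 without mouse 9-1. Of 11 sensors and effectors of the unfolded protein response 1 was lower and 0 were higher (by limma, 1 and 3 at an unadjusted p under 0.05). The gene that was lower was Ppp1r15a, the phosphatase subunit that restores translation, at -1.88 (adjusted p = 0.00101), and the median was -0.08. Atf4, a transcription factor of the response, had -0.30 (adjusted p = 0.172), and Rtcb, the ligase that joins spliced Xbp1 mRNA, had -0.08.

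Immunoglobulin transcripts are the product of the program. Of 13 immunoglobulin loci 7 were lower in Frzb-/- mice, 0 were higher and 6 did not pass, with a median log2 fold change of -1.77, and the variable kappa gene Igkv15-103 had -4.24 (adjusted p = 0.00124). Ighm, the heavy chain of IgM, had -2.53 (adjusted p = 0.00149). Igha, the heavy chain of the IgA that Jchain joins and named after its values were seen, read 8.95 and 8.68 in mice 14 and 17, and 10.14 in mouse 6, against 10.65, 10.97 and 11.82 in the wild-type mice, with -2.33 (adjusted p = 0.00341). Both Frzb-/- mice lay below all wild-type mice, and mouse 6 lay between the groups. Variable genes are a family of near copies, and a probe set can read more than its named member. Like Jchain, Igkv15-103 stands in the study's list of top genes from these arrays, so its direction is not independent evidence. Without mouse 17 the count of 7 was 2.

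B cell identity genes are shut off as plasma cells form. Of 19 measured, 9 were lower, 0 were higher and 10 did not pass, with a median log2 fold change of -0.82. Ms4a1 (CD20), a surface protein of mature B cells, read 6.07 and 7.27 in mice 14 and 17, and 8.53 in mouse 6, against 9.08, 9.56 and 9.10 in the wild-type mice, with -2.57 (adjusted p = 0.00293). All 3 mice labelled Frzb-/- were below the wild-type mice at Ms4a1, with mouse 6 the nearest to them. The B cell transcription factor Spib had -2.46 (adjusted p = 0.000999), while Id3 and Ets1, at 0.41 and -0.21 (adjusted p = 0.0717 and 0.368), did not pass. The mean log2 level over the list was 7.56 and 7.47 in Frzb-/- mice and 8.51 in mouse 6, against 8.52, 8.69 and 8.67 in wild-type mice.

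Factors that work with Pou2af1, Irf4 and Prdm1 included 3 that were lower of 11 measured, and 0 higher, with a median of -0.49. The lymphoid zinc finger factors Ikzf1 and Ikzf3 had -2.21 and -1.92 (adjusted p = 0.00132 and 0.000938), and the corepressor Hdac1 had -0.45 (adjusted p = 0.0824). Tcf4, an E protein, had 0.75 (adjusted p = 0.0046) and missed the minimum fold change. The count of 3 was 1 without mouse 17. Of the 7 other interferon regulatory factors 1 was lower, Irf8, a factor of B cells and myeloid cells, at -1.93 (adjusted p = 0.00408), and Irf1 had -0.20 (adjusted p = 0.407). The single call of Irf8 was lost without mouse 17 or any single wild-type mouse, when 0 of the family passed and 4 were lower at an unadjusted p under 0.05 by limma.

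Among 8 measured niche factors that retain or feed plasma cells, 2 were lower and 0 higher, with a median of -0.14. Vcam1, the stromal adhesion molecule, had -1.63 (adjusted p = 0.00329) and Tnfsf13b (BAFF), the survival ligand of Tnfrsf13c, had -1.44 (adjusted p = 0.00311). Cxcl12, the ligand of Cxcr4, read 10.66 and 10.11 in mice 14 and 17, and 11.45 in mouse 6, against 11.27, 11.35 and 11.63 in the wild-type mice, and its difference of -1.03 (adjusted p = 0.0107) did not pass. Lgals1, a secreted lectin, had 0.64 (adjusted p = 0.0125). Without mouse 8-1, 14 or 17 the count of 2 was 0, with 3, 4 and 3 niche factors lower, and 2, 2 and 3 higher, at an unadjusted p under 0.05 by limma.

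Irf4, Prdm1 and Xbp1 are also used outside the B lineage, so markers of other cells were read. Neutrophil and erythroid markers were lower in the same mice as the program genes that passed. All 11 measured neutrophil markers were lower, with a median log2 fold change of -2.29. Their mean log2 level was 10.82 and 10.37 in mice 14 and 17, and 12.84 in mouse 6, against 12.64, 13.18 and 13.18 in the wild-type mice. Mmp8 and Cd177 had -3.53 and -3.17, and the abundant S100a8 and S100a9 had -1.47 and -1.67. Without mouse 17 the count of 11 was 3. Of 9 erythroid markers 8 were lower, with a median of -2.80, and their mean level was 8.86 and 8.52 in Frzb-/- mice and 11.44 in mouse 6, against 11.26, 11.00 and 11.42 in wild-type mice. Car1 and Epb42 had -3.34 and -3.25, and Car2 and Slc4a1 had -2.58 and -2.80. Mmp8, Cd177, Car1 and Epb42 also stand in the study's list of top genes from these arrays, so their direction is not independent evidence. Neutrophil and erythroid markers thus read lower in the same 2 mice, and the part of these lineages in the differences of the program was not tested.

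Markers of the remaining cell types moved less, but many of them were dim. Every T and NK cell marker except Nkg7 read below the array medians (7.32 to 7.45) in all mice. Most plasmacytoid dendritic cell markers did too, and a fall could go unseen at so low a level. Of 7 T and NK cell markers 2 were lower, Nkg7 at -2.39 and Cd2 at -1.04, with a median of -0.37 and mean levels of 5.01 and 5.05 in Frzb-/- mice and 5.60 in mouse 6, against 5.58 to 5.81 in wild-type mice. That count was 1 without mouse 8-1, 9-1 or 14, and 0 without mouse 17, when 3 were lower at an unadjusted p under 0.05 by limma. Of 7 plasmacytoid dendritic cell markers Ly6d, which B cell precursors share, was lower at -2.32, and the median was 0.04, with mean levels of 7.00 and 7.18 in Frzb-/- mice and 7.26 in mouse 6, against 7.52 to 7.66 in wild-type mice. Without mouse 9-1 that count of 1 was 2. Of 12 monocyte and macrophage markers Ccr2 was lower at -1.60 and Vsig4 higher at 1.84 (adjusted p = 0.00175), and Csf1r and C1qb had 0.19 and 0.49. Without mouse 14 or 17 no macrophage marker was higher, with 3 and 5 higher at an unadjusted p under 0.05 by limma. The mean level of these markers was 9.65 and 9.55 in Frzb-/- mice and 9.32 in mouse 6, against 9.18 to 9.42 in wild-type mice.

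Chondrocytes and osteoblasts, the resident cells of the tissue, gave 0 lower and 0 higher of 9 and 6 markers, with medians of -0.04 and 0.03. By limma 1 chondrocyte marker and 2 osteoblast markers had an unadjusted p under 0.05. The cartilage genes Col2a1 and Comp had 0.03 and 0.24, and the bone genes Col1a1 and Ibsp had 0.27 and 0.16. The mean level of the chondrocyte markers was 12.46 and 12.82 in Frzb-/- mice and 13.05 in mouse 6, against 12.53, 13.05 and 12.86 in wild-type mice, so the groups overlapped. For the osteoblast markers it was 11.97 and 11.65 in Frzb-/- mice and 12.15 in mouse 6, against 11.79, 11.97 and 11.78 in wild-type mice.

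**Figure D4:**
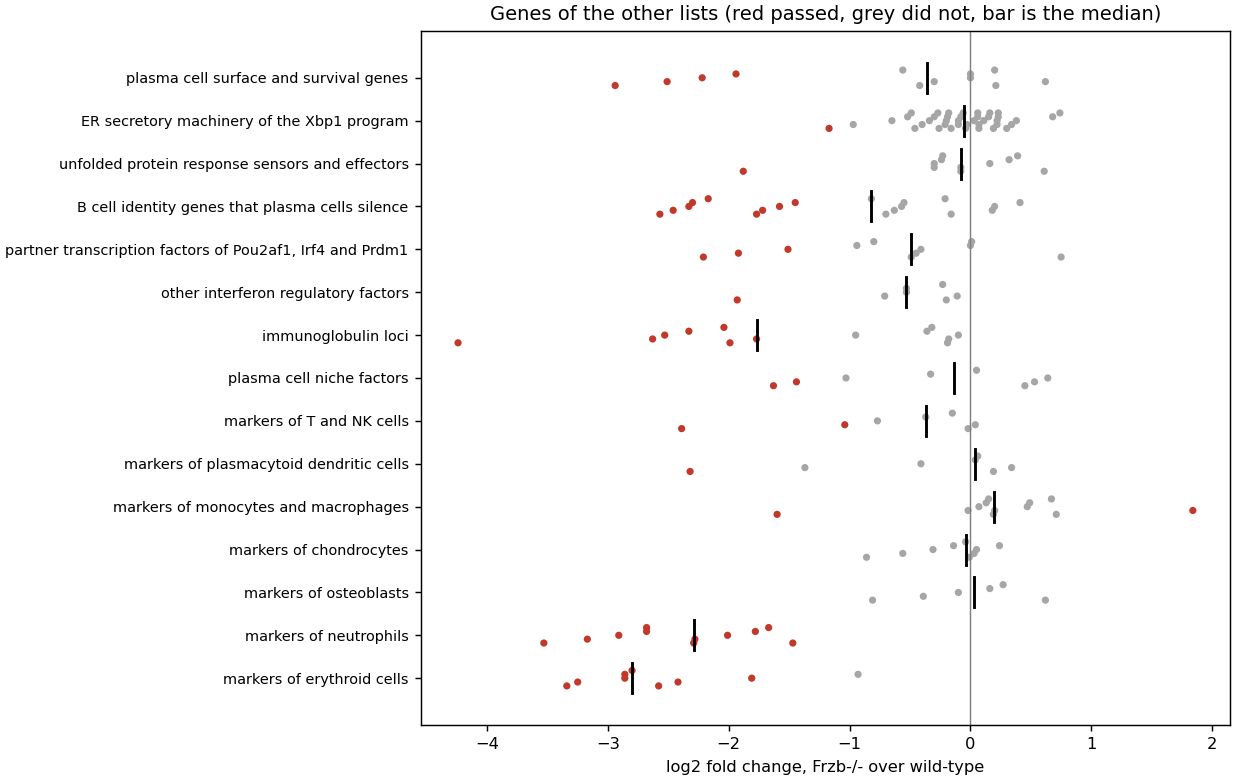
Log2 fold change (x axis), Frzb-/- mice 14 and 17 over wild-type, for the genes of 15 lists set beside the program, a row per list. Points are genes at their probe set with the highest mean, red where the gene passed and grey where it did not, and black bars are list medians. Medians range from -2.80 for erythroid markers to 0.19 for monocyte and macrophage markers.

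The genes whose pattern over the 6 mice was most like that of each member were taken by the mean absolute difference of log2 values after centring each gene on its own mean. Nearest to Jchain were Fpr2 (0.165), Slc14a1 (0.18) and Dck (0.184). Mzb1 was closest to Lrmp (0.044), Cd300lf (0.066) and Dbf4 (0.077), and Pou2af1 to Plac8 (0.027), Clec4d (0.032) and Elane (0.056), a neutrophil granule protease. For Irf4 they were Chil1 (0.039), Sorl1 (0.057) and Plbd1 (0.06). These 12 genes were picked for their likeness to members that were lower in mice 14 and 17. That all 12 were also lower there than in every other mouse follows from the choice. Prdm1 was nearest to Pcnp (0.018), Ak8 (0.022) and Txndc11 (0.024), and Xbp1 to Myo6 (0.022), Ppt1 (0.026) and Zfp719 (0.032). Among the members themselves, the closest pair was Xbp1 and Prdm1 (0.126), followed by Mzb1 and Pou2af1 (0.288), Jchain and Pou2af1 (0.343), and Mzb1 and Irf4 (0.429). Jchain and Xbp1, at 1.501, were the farthest apart. These distances describe 6 arrays and were not tested.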

How the data were processed

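RNA of 6 mice was hybridised to 1 Affymetrix Mouse 430 2.0 array each. The authors deposited log2 values from RMA (affy 1.20.0 per the labels), which corrects background and normalizes by quantiles, and these were used as deposited. Of 30618 probe sets, 25090 had a single gene symbol in the platform annotation, 677 had several and 4851 had none. Frzb-/- mice 14 and 17 were compared with the 3 wild-type mice by limma 3.58.1 (R 4.3.3, lmFit and eBayes, two-sided, Benjamini-Hochberg over all probe sets). Genes outside the program were read at their brightest probe set over 6 arrays. The members and the lists were chosen with earlier results of these data known. Named genes, except where said, are at most all members, the 2 most changed genes that passed and the 2 brightest of each list, 3 genes of like pattern per member, and Frzb. Promoters came from RefSeq (GRCm38.p6). The fit was tested on simulated data. Tables and figures used Python 3.11.15. The alternatives were other array sets, each mouse left out, a filter on dim probe sets, cyclic loess, other moderation, array weights and a threshold of 0.05. Precision is limited by the number of arrays. No batch or scan information was used here.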

Additional observations from a re-analysis of the deposited data

How the results depend on the processing

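The number of program probe sets that passed was 4 of 10 in the comparison of mice 14 and 17 with wild-type mice. It was 4 with mouse 6 as a group of its own, with probe sets above the median level, with cyclic loess, with a mean-variance trend, with robust moderation, with array weights and at an adjusted p under 0.05 without a minimum fold change. The number was 0 with all 3 labelled mice and 0 without moderation of the spread. With all 3 labelled mice 2 probe sets had an unadjusted p under 0.05 by limma. Without moderation 4 had an unadjusted p under 0.05 by an ordinary t-test on the linear fit. Leaving out single mice gave 0 to 3 probe sets. It was 3 without mouse 6-1, 1 without 8-1, 3 without 9-1, 3 without 14 and 0 without 17, with 4 at an unadjusted p under 0.05 in the last fit, and a lone Frzb-/- mouse is there assumed to vary like the wild-type mice. Without moderation the adjusted p was 0.0786 at Jchain, 0.0609 at Pou2af1, 0.104 at Mzb1 and 0.0804 at Irf4 (1421173_at). The differences at these 4 probe sets stayed below 0 in all settings. The sign turned at Irf4 1421174_at, to 0.04 with array weights and over a range of -0.14 to 0.05 when single mice were left out, and at Prdm1, over a range of -0.19 to 0.03. No list had a gene that passed with all 3 labelled mice or without moderation. With probe sets above the median, which tests fewer genes, 3 of 3 immunoglobulin loci were lower, against 7 of 13 as reported above. Niche factors gave 1 of 4, against 2 of 8, and T and NK cell markers 1 of 1, against 2 of 7. With array weights 2 secretory genes were lower, against 1. At an adjusted p under 0.05 without a minimum fold change, the counts that moved by more than 1.5 times were, among lower genes, 6 secretory genes, 6 partner factors, 4 other interferon regulatory factors, 2 plasmacytoid dendritic cell markers and 1 osteoblast marker, against 1, 3, 1, 1 and 0, and among higher genes 1 surface and survival gene, 2 secretory genes, 1 gene of the unfolded protein response, 1 partner factor, 2 niche factors, 3 macrophage markers and 1 osteoblast marker, against 1 macrophage marker and 0 of the others. No paired analysis was possible because the animal numbers of the groups are not shared. With 2 Frzb-/- mice, the width of the 95% intervals limits what could be detected.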
